A study of Mus musculus with 6 samples.

Results

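PPARα-driven fat oxidation was followed through 8 genes in the mouse small intestinal epithelium: Ppara, the receptor itself, and its known targets Cpt1a, Acadl, Acaa1b, Ehhadh, Pdk4, Angptl4 and Plin2. They were chosen by gene symbol from the 32285 features of the tables, and all 8 were present. No filter on their measured values was used, but earlier results of these data were known. The study profiled single cells with 10x Genomics 5' chemistry in 6 libraries of small intestinal epithelium freed with EDTA and trypsin. Of these, 3 carry the label of the intestinal epithelium HuR knockout (IE-HuR-/-) and 3 that of the littermate, whose genotype is given as wild-type (control). According to the methods, IE-HuR-/- mice carry floxed HuR alleles and Cre under the villin promoter, so that deletion is aimed at epithelial cells and not at the lymphocytes among them, and the controls are littermates with the floxed alleles and no Cre, both 6 to 8 weeks old and on a C57BL/6 background. The labels name no agent for either group. The labels describe normal feeding while the methods describe 24 h without food before experiments, so the feeding state, on which these genes are known to depend, is uncertain but was stated alike for both groups. The labels number replicates but do not say whether each library is 1 animal, and p-values therefore measure the spread between these libraries, which may be technical.

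PPARα is a nuclear receptor that is switched on by fatty acids and binds DNA as a pair with a retinoid X receptor. Its targets move long-chain fatty acids into mitochondria, shorten them there and in peroxisomes, spare glucose by switching off pyruvate dehydrogenase, and manage stored and circulating fat. In the small intestine the program is known to respond to dietary fat and to fasting, and the absorptive enterocytes that take up fat are renewed from the crypt and travel up the villus to be shed at its tip.

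Unique molecular identifiers (UMIs, each standing for 1 captured RNA molecule) were summed per library over cells gated by the share of their UMIs in marker lists, so that the library and not the cell was the replicate. Enterocyte-gated cells numbered 16341 of 60706 barcodes, 2001 to 4124 per library, with summed totals of 36044375 to 56036067 UMIs. In addition, 29591 barcodes were under 2000 UMIs and 435 barcodes occurred in more than 1 library. Enterocyte markers had to make up 1% of a cell's UMIs, and 232 to 535 cells per library lay close to that cutoff, between 0.8% and 1.2%. Levels are given in counts per total UMIs of a sum, scaled alike for all libraries (CPM), and, for comparisons of labels and positions, after TMM scaling, which allows for differences in RNA composition. Elavl1, which encodes HuR, had 27.2, 28.9 and 26.5 TMM-scaled CPM in control and 31.7, 32.0 and 32.4 in the libraries labelled as IE-HuR-/-, and so was not lower under the knockout label (log2 fold change 0.22, SE 0.05, edgeR adjusted p = 0.000225). Without TMM scaling the value was 0.03 (adjusted p = 0.600). Whether these reads come from the deleted part of the gene cannot be told from gene totals, so directions below are between libraries by label. The enterocyte-gated sums also differed in the levels of region and position markers. Whether the cells came from other places or expressed the markers differently was not tested. UMIs of distal small intestinal markers (Fabp6, Slc10a2, Fgf15 and Osr2) made up 840 to 869 CPM in control and 3223 to 3487 CPM in the libraries labelled as IE-HuR-/-, proximal markers (Gata4, Onecut2 and Cybrd1) 174 to 190 CPM against 137 to 139 CPM, villus tip markers 5541 to 6398 CPM against 8209 to 8760 CPM, and lower-villus markers such as Reg3b and Reg3g 4946 to 5592 CPM against 17104 to 17809 CPM. T cell markers were at 32.4 to 58.2 CPM in control and 60.4 to 65.0 CPM in the libraries labelled as IE-HuR-/-. B cell or plasma cell markers were at 1.12 to 3.28 CPM against 10.8 to 15.6 CPM, and erythroid markers at 39.0 to 85.8 CPM against 24.9 to 33.0 CPM. The part of RNA from these cells in the results was not tested. The methods describe tissue from the middle small intestine for other assays and do not give the segment for these cells. Results by region and by villus position are given beside the main values.

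PPARα and its partner bind a direct repeat of AGGTCA with 1 base between the copies, near gene starts or far from them. This repeat was searched on both strands with up to 2 mismatches in its 12 letters, in the RefSeq promoters of the GRCm38.p6 build (each 250 bases before to 50 after the start). It was found in 1268 of 32851 promoters (3.86%), in 9 of the 86 genes of the related lists described below (10.5%), and in 1 of the 7 members with an entry, Plin2. Angptl4 had no entry. The Plin2 promoter is printed because it holds that match, which has 2 mismatches, the most allowed. The whole site is in capitals, with its mismatches and the base between the copies. The repeat itself lies on the complementary strand. The match begins 225 bases upstream of the start. The promoters of Acaa1b and Acadl are printed because these were the members that varied together most across single cells. No match was found in either window. All 3 genes lie on the minus strand, and the sequences read 5′ to 3′ along the gene.
Plin2, chr4:86670010-86670309: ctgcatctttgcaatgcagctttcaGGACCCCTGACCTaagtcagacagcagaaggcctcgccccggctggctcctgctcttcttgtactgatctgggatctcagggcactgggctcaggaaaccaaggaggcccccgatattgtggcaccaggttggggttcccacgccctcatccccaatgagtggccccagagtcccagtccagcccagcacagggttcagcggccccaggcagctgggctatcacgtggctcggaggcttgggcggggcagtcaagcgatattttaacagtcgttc
Acaa1b, chr9:119157044-119157343: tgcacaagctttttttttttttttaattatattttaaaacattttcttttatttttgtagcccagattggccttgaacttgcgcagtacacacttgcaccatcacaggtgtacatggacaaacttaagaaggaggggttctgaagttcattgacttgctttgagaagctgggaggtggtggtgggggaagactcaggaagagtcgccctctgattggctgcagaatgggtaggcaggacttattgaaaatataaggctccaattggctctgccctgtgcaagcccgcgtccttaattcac
Acadl, chr1:66863260-66863559: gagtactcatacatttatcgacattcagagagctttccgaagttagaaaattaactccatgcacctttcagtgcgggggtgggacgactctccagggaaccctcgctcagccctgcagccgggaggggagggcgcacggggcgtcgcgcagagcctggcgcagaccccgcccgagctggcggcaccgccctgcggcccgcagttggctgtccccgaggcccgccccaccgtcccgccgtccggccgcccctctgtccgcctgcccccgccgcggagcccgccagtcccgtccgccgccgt

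The other promoters lie with their genes on chromosome 15 (Ppara, 85734983 to 85802819), chromosome 19 (Cpt1a, 3322334 to 3385733), chromosome 16 (Ehhadh, 21761287 to 21787807) and chromosome 6 (Pdk4, 5483351 to 5496309), and Angptl4 spans 33773750 to 33781830 on chromosome 17, all in GRCm38. Acaa1b overlaps Dlec1 on the opposite strand and has a near-identical copy, Acaa1a, so reads may have been divided between the copies and values of Acaa1b are uncertain in that respect. Acadl overlaps the processed pseudogene Gm15793 on the same strand and the small nuclear RNA gene Gm27934 on the opposite strand. Ehhadh overlaps the small nuclear RNA gene Gm24898 on the opposite strand. None of these Gm genes is among the features, and their part in the values was not tested.

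Across cell classes, both peroxisomal enzymes stood highest in enterocytes, apart from every other epithelial class. Levels here are plain CPM in the control libraries (mean ± SD, n = 3), each gene compared only with itself. Acaa1b, the thiolase that completes a round of peroxisomal oxidation, was at 61.3 ± 2.26 in enterocyte-gated cells, 32.8 in tuft-gated, 29.9 in goblet-gated and 25.3 in enteroendocrine-gated cells. Ehhadh, the peroxisomal enzyme that carries out the middle steps of the same round, was at 88.8 ± 8.18 in enterocyte-gated cells, 50.5 in goblet-gated and 44.3 in tuft-gated cells. Ppara was at 13.2 ± 1.03 in enterocyte-gated cells and at 7.19 ± 0.53 in goblet-gated cells, while progenitor-gated cells, at 10.2 ± 9.59, overlapped with both. For Pdk4, a kinase that switches off pyruvate dehydrogenase, enterocyte-gated cells were at 7.42 ± 0.58 and goblet-gated cells at 3.64, while enteroendocrine-gated cells at 9.96 ± 9.67 could not be ordered against either.

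Cpt1a, the gatekeeper of long-chain fatty acid entry into mitochondria, had the opposite order. It was at 95.7 ± 17.4 CPM in progenitor-gated cells and 91.4 ± 18.4 CPM in tuft-gated cells, which overlapped, at 47.1 CPM in enteroendocrine-gated cells, and at 25.5 and 25.3 ± 0.30 CPM in goblet- and enterocyte-gated cells, which overlapped as well. Acadl, the long-chain acyl-CoA dehydrogenase that opens each round of mitochondrial oxidation, was at 141 ± 13.6 CPM in tuft-gated, 129 ± 3.13 CPM in enterocyte-gated and 127 ± 0.99 CPM in T or NK cells, neighbours that overlapped, and was lowest in goblet-gated cells at 60.3 ± 6.14 CPM. Plin2, a coat protein of lipid droplets, ran from 39.6 CPM in progenitor-gated over 36.8 ± 1.85 CPM in enterocyte-gated to 20.7 CPM in goblet-gated cells, with overlap between all neighbours in this order. Angptl4, a secreted inhibitor of lipoprotein lipase, was at 3.62 ± 0.13 CPM in enterocyte-gated cells, overlapping with T or NK cells at 2.88 ± 1.09, and at 1.59 CPM in goblet-gated cells. Only 130 progenitor-gated, 146 tuft-gated and 278 enteroendocrine-gated cells were found in all, and their values rest on few UMIs.

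T or NK cells of the same libraries gave a background of RNA from other cells for the genes they should lack. Their gate left out cells with 0.3% or more of UMIs in general epithelial markers, so it may set this background low. With every cell thinned to 5000 UMIs (11252 enterocyte-gated cells kept, with median depths of 14138 to 21412 UMIs per library before thinning, and 5089 shallower cells left out), a Ppara UMI was found in 4.76% of enterocyte-gated cells and in 0.406% of T or NK cells, of which 2465 with median depths of 5796 to 6320 UMIs were kept and 2555 left out. The unthinned shares were 12.4% and 0.498%. Acaa1b was found in 25.2% against 2.56%, Ehhadh in 29.9% against 4.79% and Pdk4 in 2.85% against 0.203%. These genes thus lay well above the background in T or NK cells gated in this way. Plin2 was found in 13.3% against 7.87%, with library ranges of 9.99 to 16.4% and 6.54 to 9.63% that did not overlap. With both labels pooled, the remaining 3 did not stand clear of the T or NK cells: Cpt1a was found in 9.74% against 8.07%, Angptl4 in 1.64% against 1.42% and Acadl in 46.4% against 48.1%. In control alone, Cpt1a was found in 9.92 to 10.5% against 5.88 to 7.96%, without overlap. Under the IE-HuR-/- label Cpt1a was found in 8.65 to 9.40% against 7.82 to 12.1%, which overlapped. In control, Acadl was found in 38.9 to 42.0% against 40.8 to 52.7%. Under the IE-HuR-/- label it was found in 52.0 to 55.5% against 47.7 to 51.1%, without overlap. In plain CPM, Angptl4 was also apart under that label, at 4.36 to 5.24 against 2.62 to 3.03. T cells are not known to lack these 4 genes, and their own expression and free RNA cannot be told apart here.

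The label comparison asked how the members differed in enterocytes between the groups. In TMM-scaled CPM of enterocyte-gated sums, Acadl, Acaa1b and Angptl4 were higher and Ppara, Plin2 and Pdk4 lower in the libraries labelled as IE-HuR-/-, and Cpt1a and Ehhadh did not pass the test. Of all 12234 RNAs tested by edgeR, 29.4% were called higher and 32.5% lower at an adjusted p under 0.05, so a count of 3 higher and 3 lower among 8 is close to the background, and the members are described 1 by 1. Their median log2 fold change was -0.03, beside -0.03 over all RNAs. Groups without overlap were common as well. Of the RNAs tested, 30.8% were apart and higher under the IE-HuR-/- label, and 34.4% were apart and lower. These shares were counted in the enterocyte-gated sums only.

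The receptor was lower. Ppara had 13.0, 12.8 and 11.4 TMM-scaled CPM in the control libraries and 7.43, 7.27 and 7.59 in the libraries labelled as IE-HuR-/-. Every control library lay above every library labelled as IE-HuR-/-, by 1.67-fold on average (log2 fold change -0.74, SE 0.07, edgeR adjusted p = 3.77e-14).

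The mitochondrial pair did not move alike. Acadl had 123, 117 and 124 TMM-scaled CPM in control and 206, 228 and 218 in the libraries labelled as IE-HuR-/-. This was the widest gap among the members, 1.79-fold higher with no overlap (log2 fold change 0.84, SE 0.04, edgeR adjusted p = 6.63e-27). Cpt1a had 23.9, 23.5 and 23.8 TMM-scaled CPM in control and 21.4, 22.1 and 23.1 in the libraries labelled as IE-HuR-/-, which did not overlap but lay close together (log2 fold change -0.09, SE 0.06, edgeR adjusted p = 0.14).

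The peroxisomal pair also parted. Acaa1b had 54.8, 58.6 and 59.2 TMM-scaled CPM in control and 82.2, 80.3 and 88.6 in the libraries labelled as IE-HuR-/-. All 3 of the latter were higher, by 1.46-fold (log2 fold change 0.54, SE 0.05, edgeR adjusted p = 1.73e-16). Its near-identical copy Acaa1a had 267, 276 and 290 TMM-scaled CPM in control and 260, 278 and 275 in the libraries labelled as IE-HuR-/-, which overlapped (log2 fold change -0.03, edgeR adjusted p = 0.519). Ehhadh had 78.7, 78.1 and 93.3 TMM-scaled CPM in control and 86.6, 82.1 and 85.3 in the libraries labelled as IE-HuR-/-, and the groups overlapped (log2 fold change 0.02, SE 0.05, edgeR adjusted p = 0.713). Control replicate 3 held the highest Ehhadh value, and without it the log2 fold change was 0.12 and passed the test (adjusted p = 0.0296).

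Among the targets outside the oxidation steps, Pdk4 was low in all libraries, at 7.52, 6.46 and 6.90 TMM-scaled CPM in control and 5.19, 5.30 and 4.95 in the libraries labelled as IE-HuR-/-, 1.35-fold lower with no overlap (log2 fold change -0.43, SE 0.09, edgeR adjusted p = 1.69e-05). Angptl4 was scarcer still in UMIs, with 3.34, 3.28 and 3.58 TMM-scaled CPM in control and 4.68, 5.04 and 5.54 in the libraries labelled as IE-HuR-/-. It was 1.51-fold higher, again without overlap (log2 fold change 0.59, SE 0.10, edgeR adjusted p = 8.48e-07). Plin2 had 32.4, 35.5 and 35.8 TMM-scaled CPM in control and 24.02, 24.8 and 25.7 in the libraries labelled as IE-HuR-/-, 1.39-fold lower with no overlap (log2 fold change -0.48, SE 0.05, edgeR adjusted p = 4.15e-12).

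**Figure D1:**
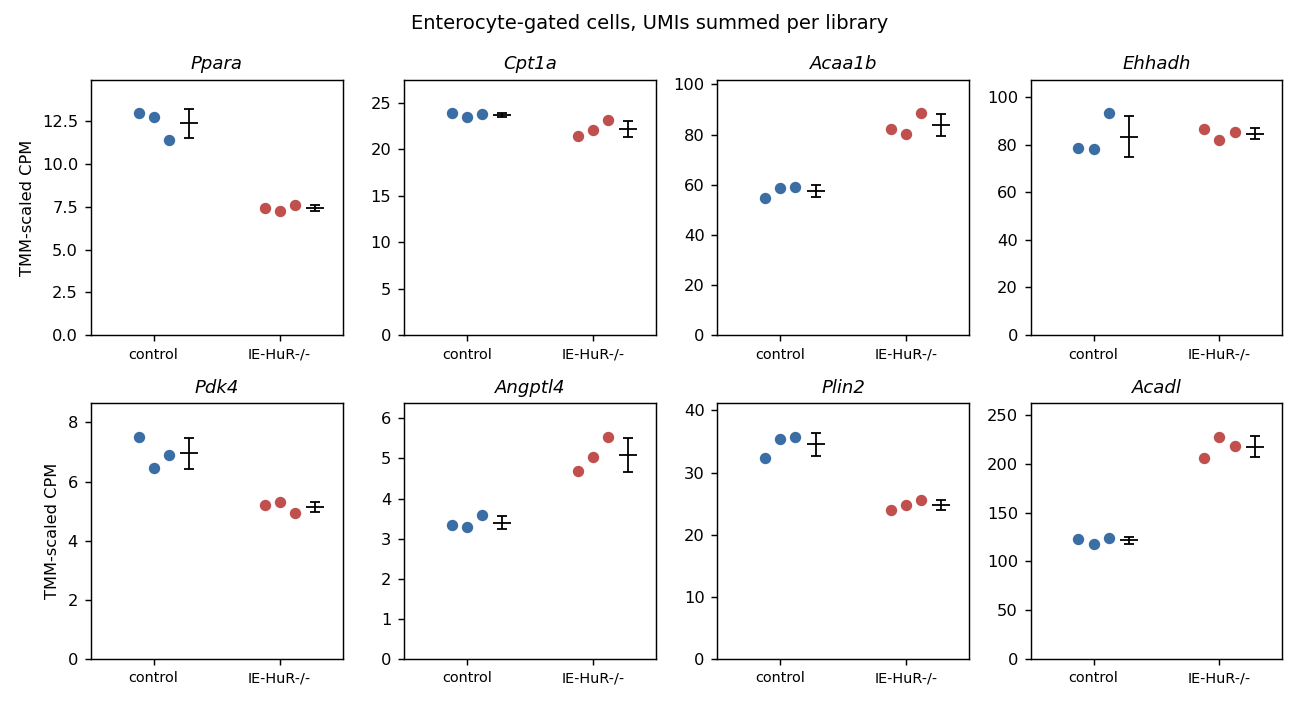
TMM-scaled CPM of each of the 8 genes in enterocyte-gated cells (vertical axis, from 0), with 1 point per library for control and IE-HuR-/- labels and bars for mean and SD (n = 3). The groups are apart for Ppara, Pdk4 and Plin2 (lower under the IE-HuR-/- label) and for Acaa1b, Angptl4 and Acadl (higher), nearly touch for Cpt1a and overlap for Ehhadh. Of all RNAs tested, 34.4% were apart and lower and 30.8% apart and higher.

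Scaling bears on the members near 0. Without TMM scaling the median of all RNAs moved by -0.18 on the log2 scale, the share of higher RNAs among those called went from 47.5% to 23.1%, and Cpt1a (log2 fold change -0.28, edgeR adjusted p = 2.59e-05) and Ehhadh (-0.16, adjusted p = 0.00624) were then called lower. Relative to the median of all RNAs they were at -0.06 and 0.05 in the scaled fit. The other 6 kept their direction and call.

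By region, Cpt1a had the widest spread of label values among the 7 members tested in both sets of cells. In the enterocyte-gated cells low in distal markers, the label log2 fold changes were -0.68 for Ppara, 0.91 for Acadl, 0.68 for Acaa1b, -0.30 for Pdk4, 0.45 for Angptl4 and -0.38 for Plin2. These 6 again passed the test, where edgeR called 29.1% of 11916 RNAs higher and 29.0% lower. Cpt1a was at 0.09 (edgeR adjusted p = 0.165). In the cells with distal markers, which made up 9.30 to 10.5% of enterocyte-gated cells in control and 23.1 to 23.9% in the libraries labelled as IE-HuR-/-, Cpt1a was at -1.20 (SE 0.12, edgeR adjusted p = 1.40e-10), Plin2 at -0.88 and Angptl4 at 1.01, all called. Of 9394 RNAs tested in those cells, edgeR called 24.2% higher and 22.2% lower. The difference between both sets of cells was not itself tested. Pdk4 was below the count filter in the cells with distal markers.

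**Figure D2:**
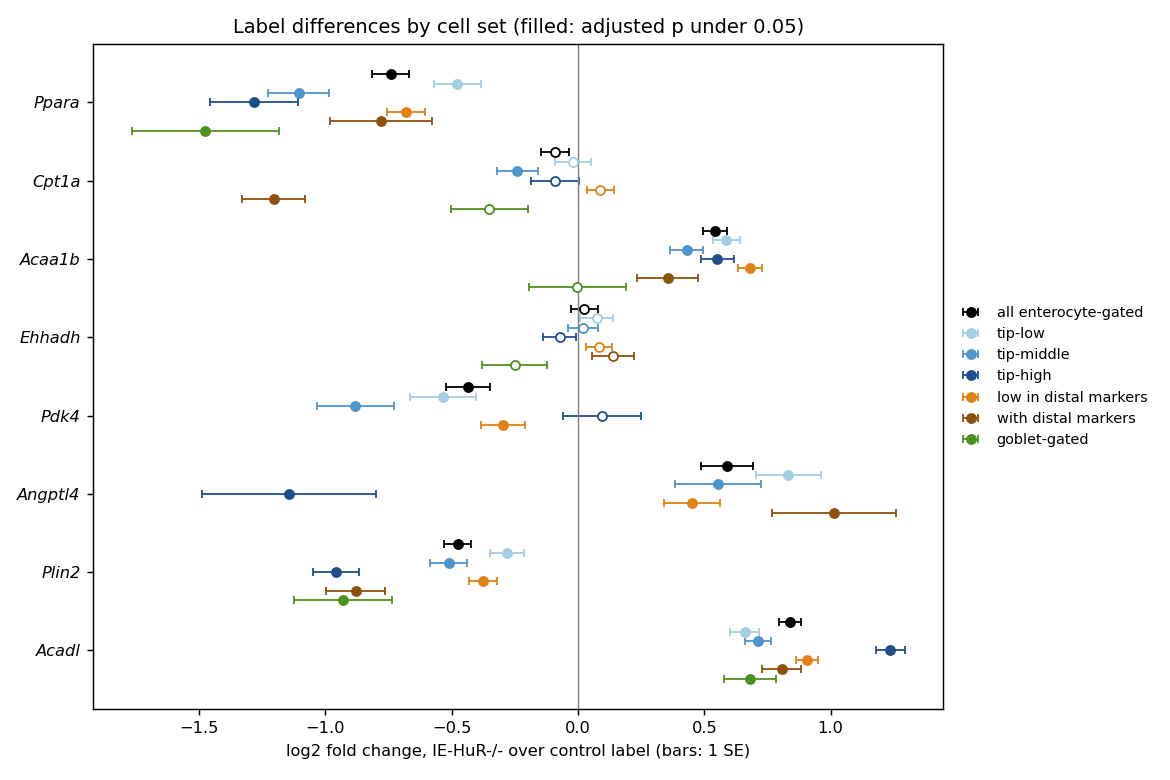
Log2 fold change of each of the 8 genes (IE-HuR-/- over control label, horizontal axis, bars 1 SE) in the sets of cells named in the legend, with filled points for an edgeR adjusted p under 0.05. The tip-low, tip-middle and tip-high cells are those ranked by villus tip markers below. Acadl lies between 0.66 and 1.24 in every set of enterocyte-gated cells, Ppara lies below 0 in all sets shown, Cpt1a runs from -1.20 in cells with distal markers to 0.09 in cells low in them, and Angptl4 turns from 0.83 to -1.14 between tip-low and tip-high cells.

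Villus position was measured by the UMIs of 7 tip markers (Ada, Nt5e, Slc28a2, Enpp3, Krt20, Klf4 and Egfr) after thinning each enterocyte-gated cell to 2000 UMIs. Cells were ranked within each library and divided into 3 equal sets, called tip-low, tip-middle and tip-high here. Ada, itself a score gene, went from 74.4 to 129 CPM in tip-low cells to 4358 to 8386 CPM in tip-high cells. Tip-high cells were deeper, with median totals of 10666 to 19106 UMIs against 7642 to 10213 UMIs in tip-low cells, and the part of depth in the results was not tested. The sets also differed in region markers. Distal markers went from 924 to 1325 CPM in tip-low to 274 to 405 CPM in tip-high cells of control. Under the IE-HuR-/- label they went from 3059 to 3913 CPM to 1367 to 1784 CPM. Proximal markers rose, in control from 152 to 175 CPM to 204 to 223 CPM. Results in cells low in distal markers are given below. In tip-high against tip-low cells, with the library as a block, 36.5% of 10516 RNAs were called higher and 40% lower by edgeR. None of the 8 members was called higher and 7 were called lower, all but Pdk4, with a median log2 fold change of -0.80 over the members beside -0.05 over all RNAs.

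The receptor showed a steep gradient. Ppara had 19.3, 17.2 and 15.3 TMM-scaled CPM in tip-low cells of the control libraries and 12.02, 13.0 and 12.1 in those labelled as IE-HuR-/-. In tip-high cells it had 6.0, 5.60 and 5.23 in control and 2.43, 2.25 and 2.71 in the libraries labelled as IE-HuR-/-. Each library was higher in its tip-low cells, by 2.93- to 5.76-fold (log2 fold change -1.88, SE 0.13, edgeR adjusted p = 4.37e-07). Angptl4 fell most by the fitted value, -2.36 (SE 0.31, edgeR adjusted p = 5.01e-05), with 5.08, 4.22 and 4.78 TMM-scaled CPM in tip-low cells of control and 8.68, 7.42 and 8.74 of the libraries labelled as IE-HuR-/-. Its tip-high level was 1.03, 1.93 and 1.57 in control and 0.560, 0.751 and 0.848 in the libraries labelled as IE-HuR-/-, which rests on 20 to 40 UMIs per control library and 6 to 10 per library labelled as IE-HuR-/-.

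The oxidation enzymes fell less. Acaa1b was 1.60- to 1.90-fold higher in tip-low than in tip-high cells over the 6 libraries (log2 fold change -0.86, SE 0.05, edgeR adjusted p = 1.46e-07), Cpt1a 1.37- to 2.04-fold (-0.74, SE 0.07, adjusted p = 5.94e-06) and Ehhadh 1.35- to 1.42-fold (-0.47, SE 0.04, adjusted p = 3.99e-06). Acadl was 1.07- to 1.96-fold higher (-0.48, SE 0.12, edgeR adjusted p = 0.00438). Plin2 was 1.70- to 2.90-fold higher in tip-low cells (-1.05, SE 0.11, edgeR adjusted p = 8.25e-06). For Pdk4, tip-low cells were higher in 4 of 6 libraries and the difference did not pass the test (-0.17, SE 0.15, edgeR adjusted p = 0.338). The 7 calls were also made in cells low in distal markers, where 40.5% of all RNAs were called lower. When cells were ranked by the lower-villus markers in place of the tip markers, Ppara fell by 0.72 on the log2 scale, Acaa1b was no longer called (-0.12, edgeR adjusted p = 0.132) and Pdk4 was called higher towards the tip (0.41, adjusted p = 0.0339). Without TMM scaling the median of all RNAs moved by -0.26 and all 8 members were called lower, beside 52.4% of all RNAs.

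**Figure D3:**
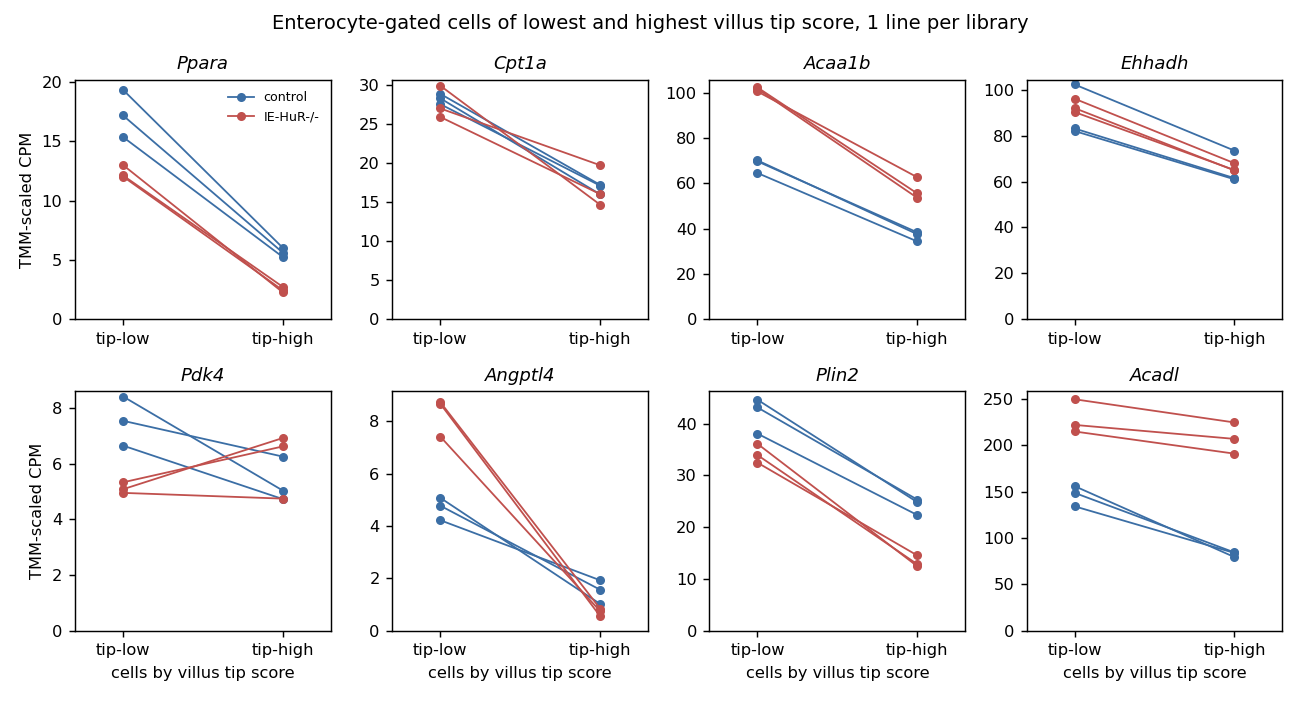
TMM-scaled CPM of each of the 8 genes (vertical axis, from 0) in the enterocyte-gated cells of lowest and highest tip score, with 1 line per library coloured by label. The lines of 7 genes go down in all 6 libraries, those of Acadl are steep in control and go down little under the IE-HuR-/- label, and Pdk4 has no common direction.

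Position and label were then combined in a test of whether the tip-high against tip-low difference itself differed by label. Of the 10516 RNAs, edgeR called 35.4% in either direction, beside 5 of the 8 members. Acadl fell towards the tip in control, where tip-low cells were 1.77 ± 0.18 times the tip-high level (SD, n = 3), and hardly in the libraries labelled as IE-HuR-/-, where the ratio was 1.10 ± 0.03 (interaction 0.68 on the log2 scale, SE 0.06, edgeR adjusted p = 7.66e-10). Its tip-high level was 84.4, 83.8 and 79.4 TMM-scaled CPM in control and 191, 224 and 207 in the libraries labelled as IE-HuR-/-, and its tip-low level 149, 134 and 156 against 215, 249 and 222. The groups were apart at both positions and farther apart at the tip. In plain CPM, without TMM scaling, Acadl also fell towards the tip under the IE-HuR-/- label, from 224, 264 and 235 to 154, 180 and 168.

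Plin2 and Ppara had the steeper gradient under the IE-HuR-/- label. The tip-low over tip-high ratio of Plin2 was 1.73 ± 0.05 in control and 2.59 ± 0.34 in the libraries labelled as IE-HuR-/- (interaction -0.58, SE 0.10, edgeR adjusted p = 3.23e-05). That of Ppara was 3.07 ± 0.14 against 5.06 ± 0.66 (interaction -0.70, SE 0.18, edgeR adjusted p = 0.0033). The Ppara call was lost when cells were ranked by lower-villus markers (-0.34, adjusted p = 0.114) or with 1 cutoff over all libraries (-0.46, adjusted p = 0.0647).

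Angptl4 turned direction between positions. Its label log2 fold change was 0.83 in tip-low cells (edgeR adjusted p = 1.44e-06), 0.55 in tip-middle cells and -1.14 in tip-high cells (adjusted p = 0.004), and the interaction was -1.87 (SE 0.36, edgeR adjusted p = 9.72e-05). With 1 cutoff over all libraries the interaction was -0.75 and was not called (adjusted p = 0.175). Pdk4 was lower under the IE-HuR-/- label in tip-low cells (-0.53) and tip-middle cells (-0.88), and did not pass the test in tip-high cells (0.095, adjusted p = 0.604), with an interaction of 0.73 (SE 0.19, edgeR adjusted p = 0.00349). Acaa1b, Cpt1a and Ehhadh had interactions of 0.07, 0.03 and -0.05 that did not pass the test. Acaa1b did pass when ranked by lower-villus markers (0.34, edgeR adjusted p = 2.51e-05) and with 1 cutoff over all libraries (0.29, adjusted p = 0.00956).

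Goblet cells, the mucus-secreting lineage, gave 1058 gated cells and 6 members that passed the count filter, all but Pdk4 and Angptl4. There, edgeR called 14.6% of 9222 RNAs higher and 12.5% lower, beside 1 member higher and 2 lower. Acadl had 58.1, 51.8 and 60.1 TMM-scaled CPM in control and 93.8, 90.7 and 88.2 in the libraries labelled as IE-HuR-/- (log2 fold change 0.68, SE 0.10, edgeR adjusted p = 2.72e-05). Ppara had 7.24, 6.79 and 6.27 in control and 2.63, 2.26 and 2.35 in the libraries labelled as IE-HuR-/- (-1.47, SE 0.29, edgeR adjusted p = 0.000528). This rests on 119 UMIs over the control libraries and 25 over those labelled as IE-HuR-/-. Plin2 had 19.5, 16.6 and 22.1 in control and 11.0, 6.78 and 12.3 in the libraries labelled as IE-HuR-/- (-0.93, SE 0.19, edgeR adjusted p = 0.000893). For these 3 called genes the groups were apart, in the direction seen in enterocytes. The part of enterocyte RNA in the goblet-gated sums was not tested. Cpt1a was apart as well, with 22.9, 24.3 and 24.9 TMM-scaled CPM in control and 21.5, 20.6 and 14.1 in the libraries labelled as IE-HuR-/-. The share of all RNAs apart was not counted in goblet-gated sums. Acaa1b was not called (log2 fold change of -0.00, edgeR adjusted p = 0.995), nor were Cpt1a (-0.35, adjusted p = 0.0956) and Ehhadh (-0.25, adjusted p = 0.157).

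In the small classes few RNAs of any kind were called. In tuft- and enteroendocrine-gated cells, summed into 1 class, edgeR called 1.49% of 9946 RNAs and 1 of 7 members tested. Plin2 had 38.2, 30.6 and 30.7 TMM-scaled CPM in control and 12.6, 14.5 and 16.8 in the libraries labelled as IE-HuR-/-, with no overlap (log2 fold change -1.16, SE 0.22, edgeR adjusted p = 0.0137). Its call was lost without control replicate 1 (adjusted p = 0.0679), without IE-HuR-/- replicate 2 (adjusted p = 0.107) and with DESeq2 (adjusted p = 0.0687), though the log2 fold change was -1.05 or lower each time. Plin2 and Acadl were the 2 members under an unadjusted edgeR p of 0.05, beside 1306 of the 9946 RNAs. Acadl was also apart, at 99.7 to 127 in control and 136 to 183 in the libraries labelled as IE-HuR-/- (0.40, edgeR adjusted p = 0.236). So was Cpt1a, at 56.8 to 66.8 against 68.1 to 76.2 (0.25, edgeR adjusted p = 0.468). The share of all RNAs apart was not counted in the small classes. In progenitor-gated cells, edgeR called 0.279% of 4663 RNAs and 0 of the 3 members tested. Of these members 1 was under an unadjusted p of 0.05, beside 318 of the 4663 RNAs. DESeq2 called 0 as well. That member, Cpt1a, had 120, 120 and 80.8 TMM-scaled CPM in control and 57.6, 51.7 and 53.0 in the libraries labelled as IE-HuR-/-, which did not overlap (log2 fold change -0.95, edgeR adjusted p = 0.325). In the T or NK cells, which do not use the villin promoter, edgeR called 0 of the 6 members tested, beside 498 of 11013 RNAs. Under an unadjusted p of 0.05 was 1 member, beside 1905 of the 11013 RNAs. That was Plin2, with 18.6, 18.7 and 18.5 TMM-scaled CPM in control and 14.7, 15.6 and 14.0 in the libraries labelled as IE-HuR-/-, apart and in the direction of the enterocyte- and goblet-gated sums (log2 fold change -0.33, edgeR adjusted p = 0.242). DESeq2 was not run there.

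Around the members, 7 lists of genes of the same and neighbouring steps were counted in the enterocyte-gated sums. Of 80 tested RNAs on the lists, 40 were called higher and 19 lower in the libraries labelled as IE-HuR-/- by edgeR, with a median log2 fold change of 0.12 beside -0.03 over all RNAs and beside the 29.4% higher and 32.5% lower of all RNAs, against which each list below is to be read. Without TMM scaling the counts were 25 and 35, beside 15.6% higher and 51.8% lower of all RNAs. The balance of the counts thus turned with the scaling, but the median of the lists stayed above that of all RNAs (-0.06 beside -0.21). Up to 3 RNAs per list, those with the largest changes, are named for 6 of the lists.

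Receptors and partners of PPARα had 5 higher and 4 lower of 11, among them the related receptor Pparg (log2 fold change -0.61), the deacetylase Sirt1 (0.50) and the enterocyte transcription factor Hnf4a (0.41). Mitochondrial oxidation had 9 higher and 7 lower of 19. Acsl1, which activates fatty acids with coenzyme A, was at -0.63, the thiolase Acaa2 at -0.59 and the carnitine carrier Slc25a20 at 0.55. Peroxisomal oxidation had 5 higher and 2 lower of 14, with the thioesterases Acot8 (0.68) and Acot4 (-0.33) and catalase, Cat (-0.57). All of these passed the edgeR test.

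Omega oxidation and cytosolic thioesterases had 4 higher and 0 lower of 4 tested by edgeR, led by Cyp4a10 (1.82) and Acot1 (1.33), both low in UMIs. All 4 were under an unadjusted p of 0.05, beside 7973 of all 12234 RNAs.

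Lipid droplet, lipolysis and fatty acid uptake genes had 12 higher and 4 lower of 17. The fatty acid transporter Cd36 went from 126 to 49.6 TMM-scaled CPM (-1.34, SE 0.05, edgeR adjusted p = 2.61e-37), G0s2, an inhibitor of the main triglyceride lipase, was at -2.48, from 1.33 to 0.232 TMM-scaled CPM, and the fatty acid binding protein Fabp2 was at 0.77. Fabp2 is 1 of the markers of the enterocyte gate, and its value is not independent of the choice of cells. The pyruvate dehydrogenase complex with its kinases and phosphatases had 3 higher and 1 lower of 11. The kinase Pdk3 was at 0.70 and Pdk2 at 0.20, both called higher, where Pdk4 was lower, and the complex subunit Dlat was at -0.46. Without TMM scaling Pdk3 was at 0.51 and Pdk2 at 0.02. The list then had 1 higher and 6 lower of 11, beside 15.6% higher and 51.8% lower of all RNAs.

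Along the villus the same lists parted by step. Tip-high cells were lower for 18 of 19 mitochondrial oxidation RNAs and higher for 1 (Slc25a20, 0.56), lower for 11 and higher for 2 of 14 peroxisomal RNAs, and lower for 10 and higher for 0 of 11 pyruvate dehydrogenase RNAs, all by edgeR and beside the 40% and 36.5% of all RNAs given above. Lipid droplet and uptake genes were the other way, 11 higher and 2 lower of 15. Receptors and partners had 7 higher and 2 lower of 11, with Hnf4a at 1.55 where Ppara was at -1.88. In goblet-gated cells, 7 RNAs of all lists were called higher and 25 lower of 75 in the libraries labelled as IE-HuR-/-, beside 14.6% and 12.5% of all RNAs there.

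Whether the members move together was described over single cells, in 11252 enterocyte-gated cells thinned to 5000 UMIs, by Pearson's r within each library and tip-score set. Cells of a library share its preparation and counts are sparse, so these values are a description. Over the 28 pairs the mean r ran from -0.01 to 0.17 with a median of 0.01, and 7 pairs were above 0 in all 6 libraries. Members had a median r of 0.004 with all other genes, with a 95th percentile of 0.06. The pairs above that were Acaa1b with Acadl (0.17, from 0.09 to 0.26 over libraries), Acaa1b with Ehhadh (0.12, from 0.08 to 0.14), Plin2 with Acadl (0.09), Acaa1b with Plin2 (0.07) and Ehhadh with Acadl (0.07). The remaining pairs above 0 in every library were Cpt1a with Acaa1b (0.05) and Ppara with Acaa1b (0.04). That percentile pools all members, and Ppara, Cpt1a, Pdk4 and Angptl4 had no r above 0.11 with any gene ranked, so pairs are also given by rank within each member's own list.

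**Figure D4:**
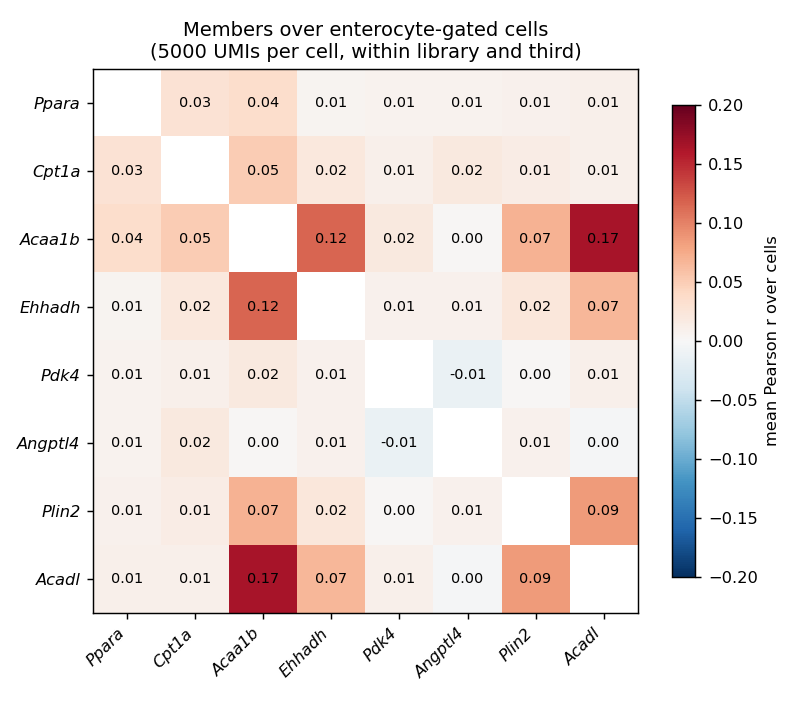
Mean Pearson r for each pair of the 8 genes over enterocyte-gated cells thinned to 5000 UMIs, computed within library and tip-score set and averaged over the 6 libraries. The highest value is 0.17 (Acaa1b with Acadl), followed by 0.12 (Acaa1b with Ehhadh), and most pairs are near 0.

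None of the genes named here as most like each member over cells was itself a member. For Acadl they were Fabp1 (r 0.42), Rbp2 (0.41) and Txn1 (0.39), for Acaa1b Gstm1 (0.30), Fabp1 (0.27) and Gstm3 (0.25), and for Plin2 Fabp1 (0.17), Cbr1 (0.16) and Rbp2 (0.16). Ehhadh was nearest to Gda (0.23), Ugdh (0.18) and Gstm1 (0.17). The less abundant members had weak relations only, Ppara with Slc2a2 (0.08), Gna11 (0.06) and Lpgat1 (0.06), Cpt1a with Ugt2b34 (0.11) and Mgam (0.10), Pdk4 with Apoa4 (0.07), Cyp3a11 (0.07) and Apoc2 (0.06), and Angptl4 with Slc5a1 (0.06), Anpep (0.06) and Pigr (0.06). Among 8248 other genes, Acaa1b ranked 43 for likeness to Ehhadh, 121 to Ppara, 125 to Cpt1a, 435 to Plin2, 481 to Acadl and 612 to Pdk4, but 3505 to Angptl4. In the list of Acaa1b itself, Acadl ranked 72, Ehhadh 226, Plin2 680, Cpt1a 1134, Ppara 1799, Pdk4 2974 and Angptl4 4612. In that of Acadl, Plin2 ranked 1209 and Ehhadh 1574, while Ppara, Cpt1a, Pdk4 and Angptl4 ranked 3774 to 4696. Cpt1a ranked 277 for likeness to Ppara, but Acadl, Plin2, Pdk4, Angptl4 and Ehhadh ranked only 2332 to 3704. Ppara ranked 599 for likeness to Cpt1a, and Ehhadh, Angptl4, Plin2, Acadl and Pdk4 ranked 1299 to 3123. Acadl also had an r of -0.30 with the mitochondrial share of a cell's UMIs (from -0.37 to -0.24 over libraries) and Plin2 one of -0.12, and the part of this in their relations was not tested.

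Cells were also split by the summed UMIs of the other 7 members. The sum was not weighted, so members with many UMIs, such as Acadl and Ehhadh, count most in it. Within libraries, cells with the higher sum had 1.98 times the Acaa1b level of the remaining cells (1.65 to 2.50 over libraries), beside a median ratio of 1.10 and a 90th percentile of 1.63 over all genes split the same way. The ratio was 1.43 for Acadl (1.18 to 1.66), where the 90th percentile was 1.32, and 1.63 for Plin2 (1.18 to 2.28), where it was 1.64. Ehhadh had a ratio of 1.45 (1.31 to 1.67), above 76.5% of all genes, close to Cpt1a at 73.1% and Ppara at 70.3%. It was 1.32 for Ppara (1.10 to 1.96), 1.36 for Cpt1a (0.89 to 1.77), 1.22 for Pdk4 (0.82 to 1.53) and 1.03 for Angptl4 (0.49 to 1.76), the last 3 with libraries on both sides of 1.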

How the data were processed

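The authors deposited, for each of 6 libraries, a table of UMI counts per gene and barcode made with CellRanger 6.1.2 (matrix header) on mm10, without normalization. The submitters' processing notes also name Seurat. The methods name a human reference and 3' chemistry, while the labels name a 5' kit and the features are mouse genes. Libraries held 59518012 to 91818560 UMIs. Barcodes were gated on at least 200 genes, 2000 UMIs and the share of UMIs in marker lists (for enterocytes at least 1% in the enterocyte list). Doublets were not called, and leaving out the 5% of gated cells with most UMIs was an alternative. Counts were summed per library and tested with edgeR 4.0.16 (quasi-likelihood, TMM, minimum count 10 and minimum total 15, Benjamini-Hochberg over all RNAs, threshold 0.05), with DESeq2 1.42.0 as an alternative, in R 4.3.3. The scripts were tested on simulated data. Position fits held the library as a block. Cells were read with Python 3.11.15.

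Members, lists and tests were chosen with earlier results of these data known, and gate thresholds after seeing the marker distributions. The text names all 8 members, up to 3 RNAs per list with the largest changes among called RNAs whose groups were apart, and the 3 genes most like each member. 1 of the lists and 1 of the genes most alike are not reported here. Enterocyte-gated sums of libraries of 1 label differed by a chi-square per degree of freedom of 5.14 to 12.4. That value treats each UMI as an independent draw, which UMIs of the same cell are not. It therefore cannot tell separate animals from repeats of 1 preparation. Each library was counted on its own. Paneth-gated cells, 7 in all, were not tested.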

Additional observations from a re-analysis of the deposited data

Results flagged for a closer look

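For 5 genes the difference between tip-high and tip-low enterocytes itself differed by label, by the interaction test in edgeR. Acadl (0.68 on the log2 scale, adjusted p = 7.66e-10) fell less towards the tip in the libraries labelled as IE-HuR-/-. Pdk4 (0.73, adjusted p = 0.00349) was lower at the tip in the 3 control libraries and higher there in 2 of the 3 labelled as IE-HuR-/-. Plin2 (-0.58, adjusted p = 3.23e-05), Ppara (-0.70, adjusted p = 0.0033) and Angptl4 (-1.87, adjusted p = 9.72e-05) fell more. The same 5 were called in cells low in distal markers, beside 3380 of 10248 RNAs. Ppara was not called when ranked by lower-villus markers (adjusted p = 0.114) or with 1 cutoff over all libraries (adjusted p = 0.0647), nor was Angptl4 with 1 cutoff (adjusted p = 0.175). Tip and lower-villus markers themselves differed by label, and the part of this in the interactions was not tested.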

How the results depend on the processing

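Of 625 values recomputed under an alternative, 98 were counts and 527 were log2 fold changes of single genes. Among the counts, 92 stayed within 1.5 times the main value. The exceptions were RNAs called by label in enterocytes, 7576 in the main analysis, which numbered 4354 in cells with distal markers and 4616 in tip-low cells (both hold fewer cells, and both were chosen after seeing the data), members called in goblet-gated cells (5 without TMM scaling, where the median of all RNAs moved by -0.18), and members called in tuft- and enteroendocrine-gated cells (0 with DESeq2, and 0 to 1 when each library was left out in turn). Among single genes, 482 kept direction and call, with no limit set on the size of the change. A further 24 moved, 10 gained and 7 lost the call, and 4 reversed. Those reversed were Ehhadh by label without TMM scaling (-0.16), and Pdk4 (0.095) and Angptl4 (-1.14) by label in tip-high cells. The last was Pdk4 by position when ranked by lower-villus markers (0.41). Apart from the scaling case, the cause was not tested. Members called by label in enterocytes were 6 to 7 when each library was left out, and members called by position were 7 each time. In the check of pairing, same-numbered libraries had correlations of -0.007, -0.082 and -0.064, so the numbers were not used to pair. With the replicate block edgeR called 7587 RNAs and 6 members in enterocytes, 3 members in goblet-gated, 1 in tuft- and enteroendocrine-gated and 0 in progenitor-gated cells. Small classes are limited by depth: 130 progenitor-gated cells leave 5 members under the count filter.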
